A study of Mus musculus with 3 samples.

Results

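The genes described here are 67 genes of the bone morphogenetic protein (BMP) and transforming growth factor beta (TGF-beta) pathways, measured in the choroid plexus epithelium (CPE) of the mouse. The selection rule used gene names and no measured value. It took every gene on the array whose name starts with Bmp or Gdf and a digit, with Bmpr, Acvr, Inhb or Fst, or is *Tgfb1* to *Tgfb3*, *Tgfbr1* to *Tgfbr3*, a *Smad*, *Ltbp1* to *Ltbp4*, *Grem1*, *Inha*, *Nog*, *Chrd*, *Sost*, *Sostdc1* or *Bambi*, among others. This gave 103 probes of these 67 genes, among 41174 probes and 21597 genes with a symbol on the array. *Bmp1*, a protease, and *Bmp2k*, a kinase, came in through their names, and *Gdf8* is the name on the array of the myostatin gene, now *Mstn*.

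The CPE is the cell layer that covers the choroid plexus in the brain ventricles, secretes cerebrospinal fluid and forms the barrier between blood and that fluid. It was cut by laser from Cresyl Violet stained frozen brain sections of 3 healthy adult C57BL/6 mice, from the lateral ventricles, and its messenger RNA was amplified. The material of each mouse was labelled with Cy5 and hybridised to an array on a slide of its own, together with Cy3-labelled RNA from C57BL/6 retinal pigment epithelium (RPE) with choroid, the common reference. How many animals gave the reference is not given in the sources used here. Mouse, dissection, amplification and slide therefore cannot be told apart, the error over the 3 mice does not contain the biological spread of the reference, and without a dye swap any dye bias of a probe stays in its ratio. Since these are bulk samples, fewer cells of a type and less RNA per cell cannot be told apart either.

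The arrays were not alike in signal. Of all probes, between 46.0% (mouse 2) and 85.6% (mouse 3) were well above background in the CPE channel. The fitted background of that channel was 363 intensity units on the array of mouse 3 and 81.2 and 82.6 on those of mice 1 and 2. Of the 67 genes, the brightest probe of 49, 39 and 62 was well above background in the CPE of mice 1, 2 and 3. The tissue labels were checked against marker genes. Of 11 CPE markers, 10 were higher in CPE than in the reference and all 11 lay above the 90th percentile of probes in CPE. Lower in CPE were 9 of 10 RPE and melanocyte markers and all 7 photoreceptor markers. Of 7 markers of stroma, the connective tissue of the plexus, 5 were lower in CPE, yet 6 of the 7 also lay above the 90th percentile there. Blood markers were lower in 3 of 3, with the globin genes *Hba-a1* and *Hbb-b1* above the 90th percentile in CPE as well. Signal of stroma and blood was thus present in the dissected samples.

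BMPs, growth and differentiation factors (GDFs), activins and TGF-betas are secreted dimers that bind pairs of type I and type II receptor kinases. BMP receptors act mostly through *Smad1*, *Smad5* and *Smad9* and TGF-beta and activin receptors through *Smad2* and *Smad3*, each with *Smad4*, while *Smad6* and *Smad7* dampen the signal. Secreted antagonists hold ligands away from their receptors, and most latent TGF-beta binding proteins (LTBPs) tie the latent, inactive form of TGF-beta to the matrix. In the developing brain, BMPs of the dorsal midline are known for specifying the choroid plexus.

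Each gene is given by its brightest probe, and each value below is either a ratio or a rank. The ratio is the log2 of CPE over reference on the same array, so that 1 is a 2-fold higher signal in CPE. A gene was past the threshold at a Benjamini-Hochberg adjusted p under 0.05 in limma's moderated test over all probes and a difference of 2-fold or more. The rank is the percentile of the CPE level among all probes. It places a probe in the high (above the 90th percentile), moderate (50th to 90th), low (10th to 50th) or very low class of the study. Probes hybridise differently, so ranks do not order the transcripts of different genes.

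Of the 67 genes, 55 had a probe bright enough to be tested, and 14 of these (25.5%) were past the threshold, against 20.3% of all 15416 genes tested. Higher in CPE were 5 (9.09%, against 8.93% of all genes): *Sostdc1*, *Bmp6*, *Smad6*, *Ltbp3* and *Gdf5*. Lower in CPE were 9 (16.4%, against 11.4%): *Tgfb3*, *Fstl5*, *Fstl1*, *Bmp2*, *Gdf10*, *Ltbp2*, *Fstl4*, *Ltbp1* and *Bmp4*. Of the 14, *Fstl5*, *Bmp2*, *Ltbp2* and *Fstl4* entered the test only through the reference channel, where they are brighter. *Gdf5* entered only through the CPE channel. With both channels required to be well above background, 37 genes were tested, of which 4 were higher and 5 lower. In all 14 the ratio had the same sign in 3 of 3 mice, which selection on the same 3 ratios makes likely. The share of higher genes among those past the threshold was 35.7%, while over all genes 1377 of 3128 were higher. With ratios centred on the median of each array in place of loess it was 46.7%, with 7 higher and 8 lower. That centring moved the median of all tested probes by 0.13 on the log2 scale. Single bright genes such as *Bmp4*, *Smad4* and *Id2* moved by more, as given below, so their ratios depend on the choice of loess. An adjusted p under 0.05 at any fold was reached by 25 genes, 10 higher and 15 lower, against 44.0% of all genes tested. The median log2 ratio of the 55 genes was 0.042 and that of all genes tested −0.015. By limma's treat, a test of whether the difference exceeds 2-fold, 2 of the genes were higher and 5 lower, and with the scanner's processed signals 8 were higher and 13 lower. The shares of all genes under these settings, median centring and the filter on both channels are not given here. Counts under them are therefore a description only.

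**Figure D1:**
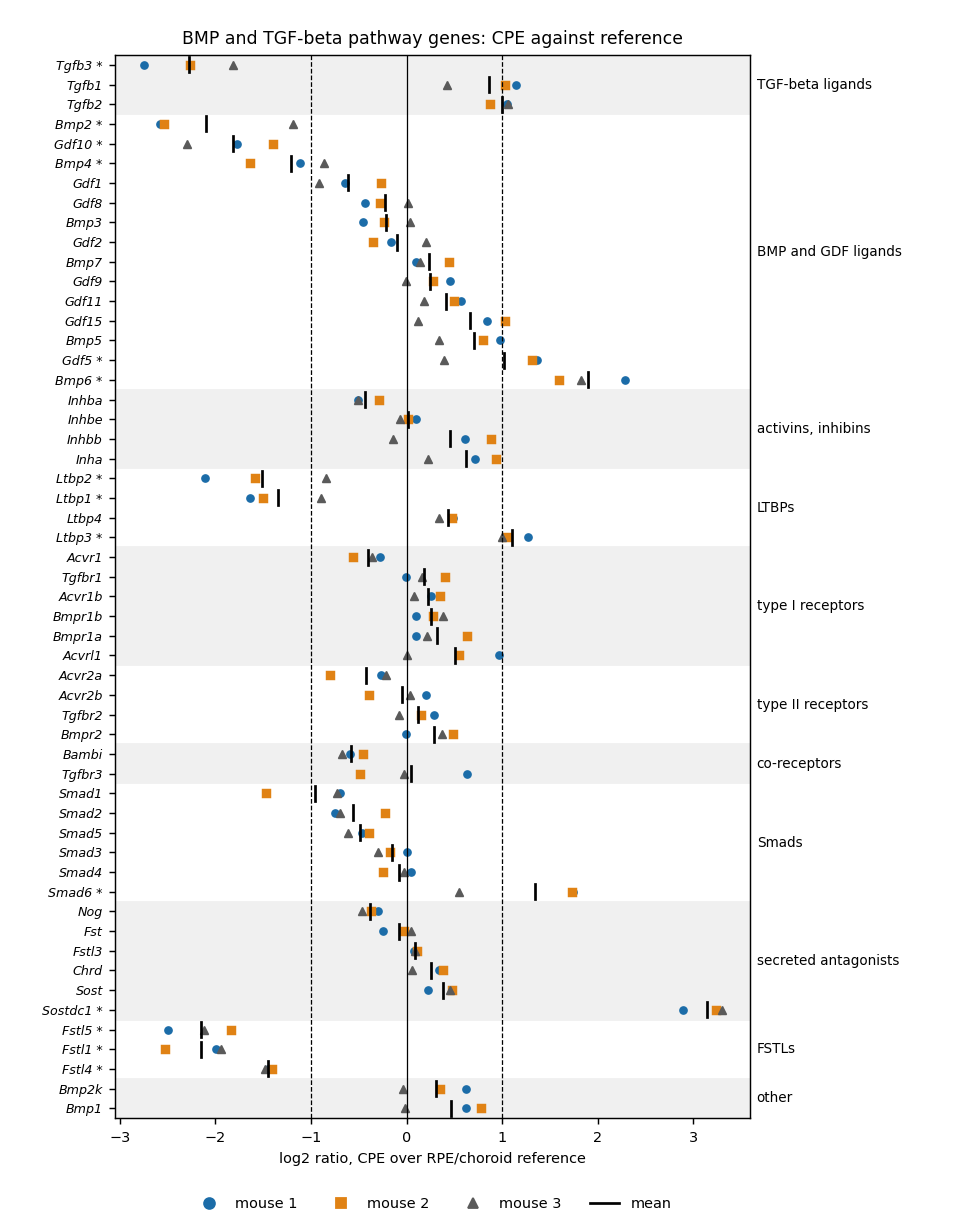
The log2 ratio of CPE over the RPE/choroid reference (x axis) is plotted for 54 of the 55 genes tested, one point per mouse, with the mean as a vertical bar, dashed lines at a 2-fold change and a star for genes past the threshold. *Sostdc1* stands alone at the right, with all 3 mice above 2.8, and the receptors gather around 0.

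In the high class were 14 of the 67 genes (20.9%, against 15.7% of all genes), with 30 moderate, 21 low and 2 very low. The 14 were *Sostdc1*, *Ltbp3*, *Bmp6*, *Tgfb2*, *Bmpr2*, *Ltbp4*, *Smad4*, *Acvr1b*, *Bmpr1a*, *Smad5*, *Tgfbr2*, *Tgfbr1*, *Fstl1* and *Bmp4*. Ligands, receptors of both types, LTBPs, Smads and an antagonist are among them. Ranked only among probes well above background in CPE on all arrays, 4 were in the high class: *Sostdc1*, *Ltbp3*, *Bmp6* and *Tgfb2*. The share of all genes in the high class of that ranking is not given here. Well above background in CPE on all 3 arrays were 38 of the 67 genes, against 12615 of all 21597 genes. In the reference these were 54, against 15102. *Bmp15*, *Grem1* and *Fstl5* reached that level in none of the CPE samples (4.48% of the genes, against 7.81% of all).

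**Figure D2:**
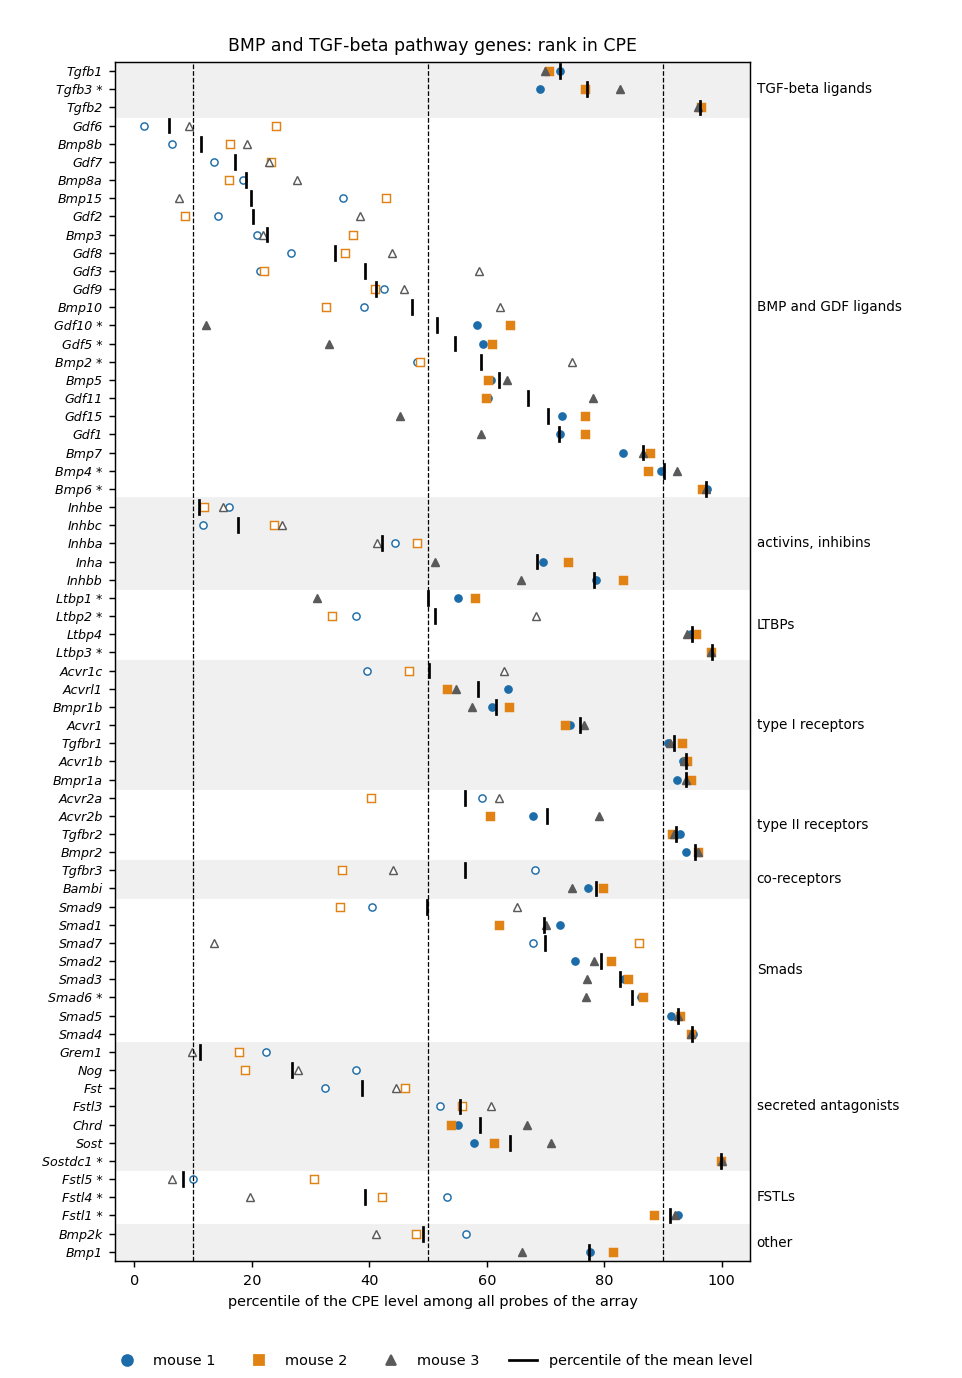
The percentile of the CPE level among all probes of an array (x axis) is plotted for 66 of the 67 genes by mouse, with the percentile of the mean level as a vertical bar and dashed lines at the class limits of 10, 50 and 90. Open symbols mark genes not well above background in CPE on every array. Symbols of the 3 mice lie close together in the high class and spread widely in the lower ones, as for *Smad7*, which ranges from 13.6 to 85.8.

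Smad proteins bind the short DNA element GTCT, or AGAC on the other strand, known as the Smad box. The start regions of *Bmp6*, *Ltbp3* and *Smad6*, 3 of the 5 genes higher in CPE, are printed to show where these letters stand. *Sostdc1* and *Gdf5* are not shown. The sequences are from RefSeq on build GRCm38.p6, and capitals mark each GTCT and AGAC. Each run holds 250 bases before the transcription start and 20 after it, 5′ to 3′ on the strand of the gene, at chr13:38345466-38345735 on the plus strand for *Bmp6*, chr19:5740650-5740919 on the plus strand for *Ltbp3* and chr9:64022040-64022309 on the minus strand for *Smad6*.
Bmp6: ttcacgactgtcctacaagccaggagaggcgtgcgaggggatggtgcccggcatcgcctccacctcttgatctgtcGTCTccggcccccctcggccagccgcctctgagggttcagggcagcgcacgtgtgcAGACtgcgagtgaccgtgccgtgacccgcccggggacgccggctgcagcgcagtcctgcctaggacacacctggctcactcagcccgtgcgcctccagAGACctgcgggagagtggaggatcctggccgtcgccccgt
Ltbp3: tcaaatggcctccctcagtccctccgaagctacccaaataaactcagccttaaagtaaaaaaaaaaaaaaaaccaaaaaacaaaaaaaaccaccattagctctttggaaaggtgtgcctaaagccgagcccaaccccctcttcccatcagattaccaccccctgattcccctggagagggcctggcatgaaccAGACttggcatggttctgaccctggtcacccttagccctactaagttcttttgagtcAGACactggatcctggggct
Smad6: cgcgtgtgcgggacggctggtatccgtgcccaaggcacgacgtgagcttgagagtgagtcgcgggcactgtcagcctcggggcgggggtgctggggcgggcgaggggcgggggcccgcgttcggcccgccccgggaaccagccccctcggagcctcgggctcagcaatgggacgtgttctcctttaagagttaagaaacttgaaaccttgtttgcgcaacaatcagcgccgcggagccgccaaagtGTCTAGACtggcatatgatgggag

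Searched on both strands from 250 bases before to 50 after the start, the *Bmp6* region held the element 4 times, 3 of them within the printed bases, and *Ltbp3* and *Smad6* held it 2 times each. In *Smad6* the matches overlapped in none of their letters and formed the palindrome GTCTAGAC, which begins 4 bases before the start. The short element occurred in 88.0% of 32851 RefSeq promoters and the palindrome in 0.213%. Of the 67 genes, 46 had an entry in that table, of which 41 held the short element and 1, *Smad6*, the palindrome. The GC-rich element GGCGCC, in 11.9% of all promoters, was in 9 of the 46. The genes lower in CPE had 7 entries, all with the short element. A match is a description of letters and not of binding.

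Among the TGF-beta ligands, *Tgfb3* was lower in CPE and *Tgfb2* and *Tgfb1* had ratios above 0 that did not reach the threshold. *Tgfb3* (chromosome 12, 86945957 to 86946016, build mm8) had log2 ratios of −2.74, −2.26 and −1.82 in mice 1, 2 and 3. All mice were more than 3-fold below the reference, and the mean was −2.27 ± 0.46 (SD, n = 3), a 4.84-fold difference with a limma adjusted p of 0.00016. It was moderate in CPE, at percentile 77.1. *Tgfb2* (chromosome 1, 188324443 to 188324502), at percentile 96.4 in CPE, had ratios of 1.05, 0.88 and 1.06. These differed little between mice, and their mean of 0.99 (SE 0.15, adjusted p 0.00195) fell just short of a 2-fold change, which it passed with median centring, with the scanner's processed signals and without mouse 2. *Tgfb1* had ratios of 1.15, 1.02 and 0.42 (mean 0.86, adjusted p 0.00932), with mouse 3 nearest to 0. Its mean was past the threshold without mouse 3, at 1.09.

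The BMP and GDF ligands moved in both directions, with 2 of 14 tested genes higher and 3 lower. *Bmp6* (chromosome 13, 38507076 to 38507135), a ligand of the BMP5 to BMP7 subgroup that also governs hepcidin in the liver, had log2 ratios of 2.28, 1.59 and 1.83. Every mouse was at least 3-fold above the reference, and the mean of 1.90 ± 0.35 (SD, n = 3) is a 3.73-fold difference (adjusted p 0.000221). Its CPE level was in the high class in each mouse, at percentiles of 97.4, 96.7 and 97.4. Another *Bmp6* probe, which lies 29854 bases upstream, had ratios of 2.40, 0.17 and 1.62. Mice 1 and 3 lay near their ratios at the first probe and mouse 2 did not, and the mean of 1.40 was still past the threshold (adjusted p 0.0196). The closest relatives of *Bmp6* stayed under 2-fold. *Bmp5* had a mean ratio of 0.70 (adjusted p 0.017). *Bmp7* had one of 0.23 (adjusted p 0.294), and another *Bmp7* probe one of 0.75 (adjusted p 0.0113). *Gdf5* (chromosome 2, 155632692 to 155632747), a ligand best known from joint formation, had ratios of 1.36, 1.31 and 0.39. Mouse 3 lay apart, and the mean of 1.02 (SE 0.22, adjusted p 0.00879) was barely past 2-fold. The reference was well above background on 1 of 3 arrays for this probe. The ratio fell below 2-fold with median centring (0.82), with no background correction (0.83), without mouse 1 (0.85) and without mouse 2 (0.88).

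The ligands lower in CPE were *Bmp2*, *Bmp4* and *Gdf10*. *Bmp2* (chromosome 2, 133252686 to 133252745), one of the classical bone-inducing BMPs, had ratios of −2.58, −2.54 and −1.19. Mice 1 and 2 were alike and mouse 3 lay nearer to 0, so that the mean of −2.10 ± 0.79 (SD, n = 3; adjusted p 0.00103) had the widest spread of the 14 genes. In CPE the probe was well above background in 2 of 3 mice. *Bmp4* (chromosome 14, 45306004 to 45306063), the closest relative of *Bmp2*, had ratios of −1.12, −1.64 and −0.87. Its mean of −1.21 (SE 0.19, adjusted p 0.00221) was lower in CPE, although the CPE level itself was at percentile 90.1, at 89.7, 87.4 and 92.4 in the mice. The call of *Bmp4* was lost with median centring (−0.55, adjusted p 0.226) and without mouse 2, where the ratio was −0.99. *Gdf10* (chromosome 14, 32764067 to 32764126), also called *Bmp3b*, had ratios of −1.77, −1.39 and −2.30 (mean −1.82, SE 0.20, adjusted p 0.000437). All mice were at least 2-fold below the reference. Its CPE rank was 58.4 and 63.9 in mice 1 and 2 and 12.2 in mouse 3.

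Of the other ligands tested, *Gdf15*, a stress-induced cytokine, had a mean ratio of 0.66 (adjusted p 0.0363) and *Gdf1*, which shares a transcript with the ceramide synthase gene *Cers1*, one of −0.61 (adjusted p 0.0279). *Gdf11*, *Gdf9*, *Gdf2*, *Bmp3* and *Gdf8* lay between −0.23 and 0.41, with adjusted p-values above 0.05. *Bmp8a*, *Bmp8b*, *Bmp10*, *Bmp15*, *Gdf3*, *Gdf6* and *Gdf7* were too dim in both channels to be tested. The activin and inhibin subunits gave no gene past the threshold among 4 tested. *Inha*, the inhibin alpha chain, had the largest ratio (0.62, adjusted p 0.0304), then *Inhbb* at 0.45, *Inhbe* at 0.013 and *Inhba* at −0.43, and *Inhbc* was too dim.

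The LTBPs divided by gene. *Ltbp3* (chromosome 19, 5758286 to 5758346), whose protein carries the latent TGF-beta complex into the matrix, had log2 ratios of 1.27, 1.05 and 0.99. These lay close together, and the mean of 1.10 ± 0.15 (SD, n = 3; adjusted p 0.00132) was past the threshold. The CPE level was at percentile 98.2 in every mouse. A probe of *Ltbp3* nearer its 5′ end had ratios of 1.40, 0.48 and 0.78 and a mean of 0.89, below 2-fold, with mouse 2 lowest. *Ltbp4* (chromosome 7, 27013916 to 27013975), at percentile 94.9, had ratios of 0.49, 0.48 and 0.34. Its mean of 0.43 did not pass (adjusted p 0.0528). *Ltbp2* (chromosome 12, 85672971 to 85673030), which binds fibrillin rather than TGF-beta, had ratios of −2.11, −1.59 and −0.84, with a mean of −1.51 (SE 0.24, adjusted p 0.00236). *Ltbp1* (chromosome 17, 75295778 to 75295911) had ratios of −1.64, −1.50 and −0.90 and a mean of −1.35 (SE 0.19, adjusted p 0.00135). Both were lower in every mouse and nearest to 0 in mouse 3, and the *Ltbp2* probe was well above background in 2 of 3 CPE samples. Their further probes were too dim to test, and that of *Ltbp2* lies on the strand opposite to the gene.

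None of the 10 receptor genes tested was past the threshold, with limma adjusted p-values from 0.0739 to 0.838 and 3 unadjusted p-values under 0.05. The type I receptors ranged from −0.40 (*Acvr1*) to 0.51 (*Acvrl1*) and the type II receptors from −0.43 (*Acvr2a*) to 0.29 (*Bmpr2*). The receptors of BMPs and of TGF-beta were nevertheless among the high genes of the CPE. *Bmpr2* (chromosome 1, 59821964 to 59822023), the main type II receptor of BMPs, lay at percentile 95.5, with ratios of −0.0022, 0.49 and 0.37. *Bmpr1a* (chromosome 14, 33240245 to 33240304), its type I partner, lay at 93.9, with ratios of 0.098, 0.63 and 0.21. For TGF-beta, *Tgfbr1* (chromosome 4, 47435649 to 47435708) lay at 91.9 and had ratios of −0.010, 0.40 and 0.16. *Tgfbr2* (chromosome 9, 115936735 to 115936794) lay at 92.2 and had ratios of 0.29, 0.15 and −0.083. The activin receptor *Acvr1b* (chromosome 15, 101041559 to 101041618) lay at 93.9 and had ratios of 0.25, 0.35 and 0.077. In these 5 genes no mouse differed from the reference by 2-fold after loess.

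Other probes of the same receptors ranked lower, from percentile 25.3 for *Acvr1b* and 27.4 for *Tgfbr1* to 74.5 for *Bmpr2*. The moderate receptors were *Acvr1*, *Acvrl1*, *Bmpr1b*, *Acvr1c*, *Acvr2a* and *Acvr2b*, of which *Acvr1c* was too dim to be tested. *Acvrl1*, the receptor of endothelial cells for BMP9 and BMP10, differed most between mice, at 0.97, 0.54 and 0.0067. Of the endothelial markers, 1 of 7 was higher in CPE and 0 were lower. The log2 of their summed intensities was 13.7 to 14.3 in CPE and 13.0 to 13.3 in the reference. These intensities were not balanced between the channels by loess. On that scale *Smad4*, with a mean ratio of −0.079, had mean levels of 11.8 in CPE and 11.0 in the reference. The part of endothelial cells in the values of *Acvrl1* was not tested. *Tgfbr3*, the co-receptor betaglycan, had ratios of 0.63, −0.48 and −0.025, with no common sign. *Bambi*, a pseudoreceptor without a kinase domain, had −0.60, −0.46 and −0.68, all below 0 and below 2-fold (mean −0.58, adjusted p 0.0194).

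Of the Smads, the inhibitory *Smad6* was higher in CPE and the others were below 2-fold or not tested. *Smad6* (chromosome 9, 63751577 to 63751636), which blocks BMP signaling and is itself a BMP target, had log2 ratios of 1.73, 1.73 and 0.55. Mice 1 and 2 were alike and mouse 3 was less than 2-fold above the reference. The mean of 1.34 ± 0.68 (SD, n = 3) is a 2.53-fold difference (adjusted p 0.00495). Its paralog *Smad7* was well above background in 2 of 3 mice in each channel and was not tested, with ratios of −0.21, 1.12 and 0.52 that had no common sign.

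The receptor-activated Smads had 4 tested genes, all with mean ratios below 0 after loess, of which *Smad3* and *Smad5* turned above 0 with median centring (0.39 and 0.18). *Smad1* had ratios of −0.70, −1.47 and −0.72. Its mean of −0.96 (SE 0.20, adjusted p 0.00717) lay just under 2-fold, and another *Smad1* probe 403 bases away had 0.20, 0.37 and −0.30, so the probes of this gene disagreed. *Smad5* (chromosome 13, 56751818 to 56751877), at percentile 92.5, had −0.47, −0.39 and −0.61 (mean −0.49, adjusted p 0.0358). *Smad2* had a mean of −0.56 (adjusted p 0.0349) and *Smad3* one of −0.16. *Smad9* was too dim to be tested. *Smad4* (chromosome 18, 73764420 to 73764479), the common partner, was high at percentile 94.9 with ratios of 0.042, −0.25 and −0.029. Another *Smad4* probe gave −0.32, −1.47 and −0.71.

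The secreted antagonists held the gene with the largest ratio of the 67. *Sostdc1* (chromosome 12, 36828466 to 36828525), which encodes a secreted protein that binds BMPs and also acts on Wnt receptors, had log2 ratios of 2.89, 3.23 and 3.29. The mice lay close together and each was over 7-fold above the reference. The mean of 3.14 ± 0.22 (SD, n = 3) is an 8.81-fold difference (adjusted p 1.6e-05). Its CPE level was at percentile 99.9 in all 3 mice, and it was below saturation on all arrays. The other antagonists described here did not share this pattern. *Nog* (noggin), *Chrd* (chordin), *Fst* (follistatin), *Fstl3* and *Sost* (sclerostin) lay between −0.38 and 0.38 with adjusted p-values above 0.05. *Grem1* was too dim to be tested.

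The follistatin-like genes *Fstl1*, *Fstl4* and *Fstl5*, which share a follistatin domain but were not counted as antagonists, were lower in CPE in 3 of 3 tested. *Fstl1* (chromosome 16, 37754746 to 37754805), a secreted glycoprotein made by many mesenchymal cells, had ratios of −2.0, −2.52 and −1.94 (mean −2.15, SE 0.18, adjusted p 0.00011). It was nevertheless in the high class of the CPE, at percentile 91.3. *Fstl4* (chromosome 11, 53028152 to 53029706) had −1.45, −1.41 and −1.48, which gave the smallest SD of the genes past the threshold (mean −1.45 ± 0.036, SD, n = 3; adjusted p 0.00031). Its probe was well above background in 2 of 3 CPE samples. *Fstl5* (chromosome 3, 76795826 to 76795885) had −2.50, −1.84 and −2.13 and was well above background in every reference sample and in no CPE sample. The reference was 4.45-fold higher in the mean of 3 arrays (adjusted p 0.000113), and a further probe gave at least 5.25-fold. Such a bound sets the brighter channel against the dim one held at or above the lowest signal that counts as well above background, after loess and Aquantile. At the first probe the CPE signal was not below that floor, so 4.45-fold is the measured difference. *Bmp1*, the protease that cleaves procollagen and chordin, had a mean ratio of 0.46 and *Bmp2k* one of 0.31, and neither passed.

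**Figure D3:**
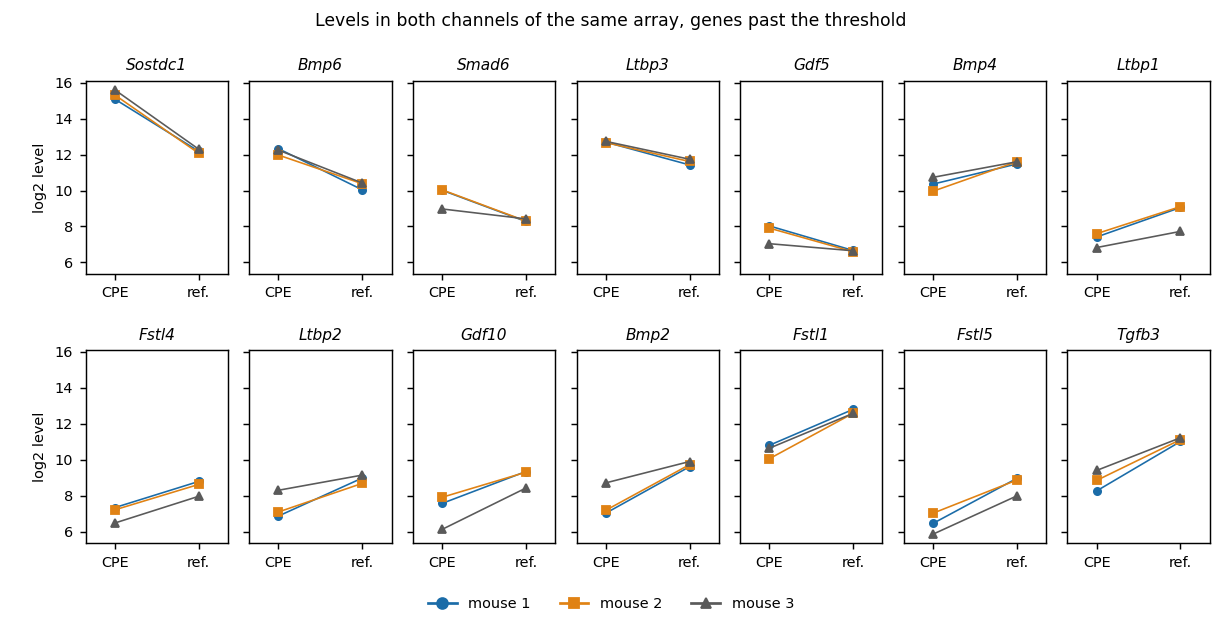
The log2 level after loess and Aquantile (y axis) in the CPE and in the reference channel of the same array is plotted for the 14 genes past the threshold, with a line for each mouse. The slope of a line is the log2 ratio, and every line of *Sostdc1*, *Bmp6*, *Smad6*, *Ltbp3* and *Gdf5* falls from CPE to reference while those of the other 9 genes rise.

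Markers of several other cell types were also lower in CPE. Besides the stroma, blood, photoreceptor and pigment cell markers counted above, 4 of 5 tested macrophage markers, 3 of 6 neuron markers, 2 of 5 smooth muscle markers and 2 of 5 astrocyte markers were lower, with 1 astrocyte marker higher. By contrast, 1 of 3 tested oligodendrocyte markers was higher and 0 were lower. Of 2 ependyma markers 1 was higher and 0 were lower. The log2 of summed intensities, again not balanced between the channels by loess, was 14.8 to 15.2 for stroma markers in CPE. In the reference it was 16.4 to 16.6. For blood markers it was 14.8 to 15.6 in CPE and 16.5 to 16.7 in the reference. For neuron markers the sums were 11.43 to 11.98 in CPE and 13.59 to 13.93 in the reference, and for photoreceptor markers 12.5 to 13.2 and 16.8 to 17.0. For RPE and melanocyte markers these were 12.8 to 13.6 in CPE and 17.4 to 17.6 in the reference, with *Tyr* well above background in 0 of the 3 CPE samples. For the CPE markers they were 18.5 in CPE and 14.6 to 14.9 in the reference. Several of the lower genes, such as *Fstl1*, *Ltbp1*, *Ltbp2* and *Tgfb3*, are known from connective tissue, and the part of these cell types in their ratios was not tested.

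**Figure D4:**
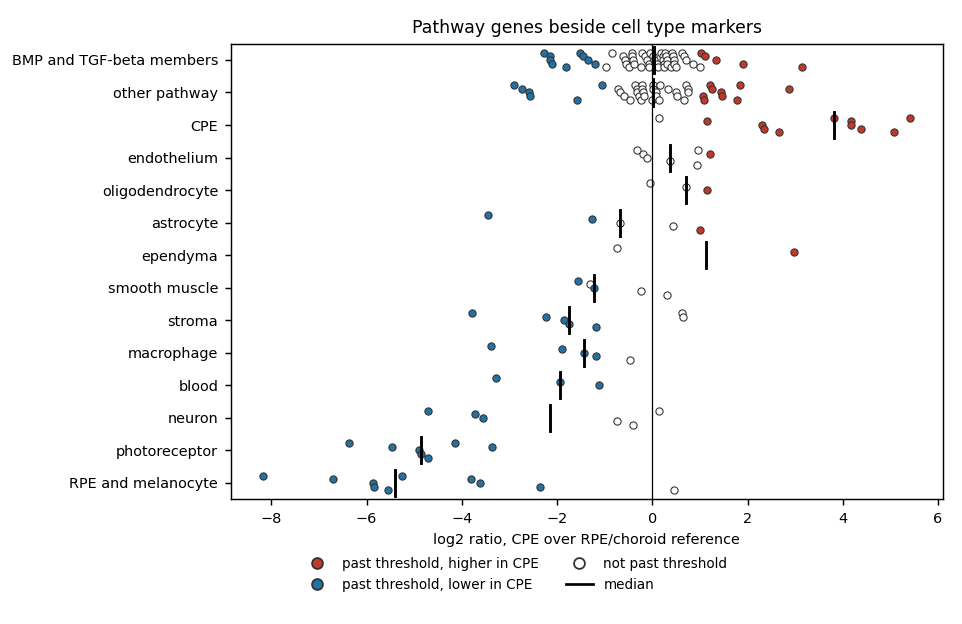
The mean log2 ratio of CPE over reference (x axis) is plotted for each tested gene of the 67, of the further pathway genes and of the marker lists (y axis), red or blue where past the threshold and with the median of each list as a vertical bar. Both pathway lists centre near 0, with medians of 0.042 and 0.0069, between the CPE markers at 3.81 and the RPE and melanocyte markers at −5.41.

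Partners, regulators and targets of the pathway that the name rule does not take were described from a separate list of 51 names, of which 48 had a probe and 42 were tested. Of these 42, 9 were past the threshold as higher and 6 as lower. Both shares were above those of all genes tested, 8.93% and 11.4%. The list was chosen with earlier results of these data known, so its counts are a description only. The higher ones included transcriptional targets of BMPs. *Msx1*, a homeobox gene induced by BMPs, had ratios of 3.40, 2.36 and 2.83 (mean 2.86, SE 0.21, adjusted p 7.32e-05) and a CPE percentile of 98.7. *Msx2* had 1.77, 1.87 and 0.76 (mean 1.47) and *Id4*, an inhibitor of helix-loop-helix factors, 1.57, 1.17 and 1.05 (mean 1.26). Both were higher in every mouse. *Id1*, *Id2* and *Id3*, the best known BMP targets of that family and named here after their values were seen, were high in CPE at percentiles 96.6, 98.4 and 97.1, with mean ratios of 0.51, −0.33 and −0.23 that did not pass. *Id2* and *Id3* turned above 0 with median centring, and *Id1* passed the threshold there, at 1.25.

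Also higher were *Tgfbi*, a matrix protein named for its induction by TGF-beta (1.83), *Furin*, the protease that cuts the precursors of TGF-beta family ligands (1.79), *Zfyve16*, an endosomal protein that binds Smads (1.44), and *Eng*, the endothelial co-receptor endoglin (1.21). *Tgfbi* and *Furin* lay at percentiles 98.1 and 97.9 in CPE. The lower genes included *Nbl1*, a secreted BMP antagonist of the DAN family, with ratios of −3.04, −2.93 and −2.76 (mean −2.91, SE 0.15, adjusted p 1.75e-05). *Htra1*, a secreted protease, was lower by −2.74, *Thbs1* (thrombospondin), an activator of latent TGF-beta, by −2.60 and *Ctgf*, a matrix-associated target of TGF-beta, by −2.57. *Ctgf* was still at percentile 90.4 in CPE. *Itgb8*, a subunit of an integrin that frees TGF-beta from its latent form, had a mean of −1.58 and lay at 94.2, and its call was lost with median centring (−0.81). All these genes had the same sign in all mice, which selection on the same ratios makes likely.

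The mice differed more for some of the 67 genes than for others. Of the 55 genes tested, *Bmp2* (0.79), *Smad6* (0.68) and *Ltbp2* (0.64) had the largest SD of the log2 ratio over the 3 mice, and in each of these mouse 3 was nearest to 0. Among the 14 genes past the threshold mouse 3 was nearest to 0 in 9, and the same share over all genes is not given here. The array of mouse 3 was the one with the brightest background, and its part in these values was not tested. For the 37 genes detected on every array in CPE and reference alike, the median SD of the log2 ratio was 0.28, and over all 12309 such genes it was 0.26. The median SD of the CPE level after Aquantile was 0.35 for these 37 genes and that of the reference channel 0.23, against 0.31 and 0.29 over all such genes. The CPE channel had the larger SD in 16 of the 37 after Aquantile and in 33 of the 37 with median centring of each channel. With that centring the median SDs of CPE and reference were 1.11 and 0.55 for the 37 genes. Over all such genes they were 1.12 and 0.49, so the wider CPE spread there is not a trait of these genes.

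Probes of 1 gene did not always give the same picture. For 19 of 26 genes with more than 1 probe, the class depended on the probe (73.1%, against 59.7% of all 8826 genes with more than 1 probe). In 12 genes, tested probes on the strand of the gene lay at least 100 bases apart. The ratio of mouse 2, set against that of mice 1 and 3, was lower at the 5′ probe than at the 3′ probe in 9 of the 12, by a median of 0.26 on the log2 scale. The same share over all genes with such probes is not given here, so this count cannot be read as a trait of these genes. *Bmp6* and *Smad1* had the widest gaps, at −1.37 and −1.18, followed by *Acvr2a* and *Fstl5* with gaps in the opposite direction, at 0.81 and 0.78. Counted by any probe of a gene, 5 genes were higher and 9 lower. That count includes the brightest probes, so it could not be smaller.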

How the data were processed

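Laser-dissected CPE of 3 mice was measured on 3 Agilent 2-colour arrays (CPE in Cy5, RPE/choroid reference in Cy3). Per the file headers, the deposited files hold spot intensity values from Feature Extraction 9.5.3.1, with probe positions on mouse build mm8. The submitters' processing notes name R 2.14.0 and limma. A deposited table of log2 values, whose background correction the sources used here do not state, ranked probes like the CPE channel (Spearman 0.998 to 1.00 over probes) and served as an alternative.

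Here, mean foreground and median background intensity were corrected by normexp (offset 50), log ratios were normalised by loess within arrays and spots of a probe were averaged (R 4.3.3, limma 3.58.1). Control spots and flagged outliers were left out. A probe that passed the scanner's well-above-background mark in CPE or in the reference on each of the 3 arrays was tested against 0 (lmFit, eBayes), 25847 probes in all, with Benjamini-Hochberg adjustment over them, of which 17.3% were past the threshold of 0.05 and 2-fold. Levels for ranks were Aquantile-normalised without background correction, and the class limits were the percentiles 90, 50 and 10. The steps were tested on simulated data. The number of arrays limits the precision. The p-values test the mean ratio against 0, with an error taken from 3 dissected samples and moderated by limma over all probes tested. Each SE is moderated in the same way, while each SD is the plain spread of the 3 mice.

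Each gene was read at the brightest of its probes. Named were the genes past the threshold, those in the high class and the leading ones of each role, and for the further pathway genes at most 12 by size of ratio. The values of 1 member gene are not reported here, and it stays in the counts. The members and lists were chosen with earlier results of these data known. Alternatives were another centring, background correction, signal source, filter, test, probe choice and array weights, and leaving out each mouse. Probe positions carry no exon or UTR annotation because no mm8 annotation was used here.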

Additional observations from a re-analysis of the deposited data

How the results depend on the processing

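No paired analysis was possible because there is only 1 group of mice, each set against the same reference. With 1 mouse left out, 4 to 6 of the genes were higher and 8 to 10 lower, the median ratio lay between 0.011 and 0.081, 13 to 14 genes were in the high class, and 7 to 11 further pathway genes were higher and 5 to 6 lower. The median ratio of 0.042 became 0.15 with median centring and −0.0077 with the scanner's processed signals. The higher genes numbered 8 with processed signals and 2 with treat, and the lower genes 5 with treat and 5 when only 37 genes well above background in both channels were tested. The fall in genes tested is part of that last count, and the cause of the others was not tested. Ranked only among probes well above background, 4 genes were in the high class. The shares of all genes under these alternatives are not given here. The median SD in CPE of 0.35 was 0.28 for the log2 ratio. With median centring of each channel it was 1.11, and 1.12 over all such genes.

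Of the single genes, treat lost *Bmp4*, *Gdf5*, *Ltbp1*, *Ltbp2*, *Ltbp3*, *Smad6* and *Fstl4*. *Smad1* passed with processed signals (−1.18), without mouse 1 (−1.10) and without mouse 3 (−1.08). Signs turned in genes with mean ratios between −0.49 and 0.09. With median centring *Smad4* was 0.64, *Smad3* 0.39, *Smad5* 0.18, *Acvr2b* 0.089, *Inhbe* −0.093, *Fstl3* −0.025, *Id2* 0.51 and *Id3* 0.54. With processed signals *Inhbe* was −0.053 and *Tgfbr3* −0.19. With 1 mouse left out, *Inhbe* ranged from −0.029 (without mouse 1) to 0.056, *Tgfbr3* from −0.25 (without mouse 1) to 0.30, *Fst* from −0.14 to 0.011 (without mouse 1), *Gdf2* from −0.26 to 0.020 (without mouse 2), *Acvr2b* from −0.18 to 0.12 (without mouse 2) and *Smad4* from −0.14 to 0.0067 (without mouse 2). The cause was not tested. Genes near background in CPE have ratios limited by signal.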
